A study of Rattus norvegicus with 12 samples.

Results

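Circadian clock output and repressor genes were followed in rat dorsal root ganglia, which hold the cell bodies of sensory neurons. They were chosen by symbol, as 10 of the 20152 genes that the 12 library tables list between them: the output factors Dbp, Tef and Hlf, the REV-ERB receptors Nr1d1 and Nr1d2, the Period genes Per1, Per2 and Per3, and the activators Arntl and Npas2. The choice was made with earlier results of these data known. Each of the 10 was listed in all 12 tables and passed the filter on low counts that left 15809 genes for testing. There were 3 groups of 4 libraries. Rats of one group received paclitaxel, which stabilises microtubules, in DMSO diluted with saline, at 2.0 mg/kg. Those of another received oxaliplatin, a platinum drug that forms DNA adducts, at 2.4 mg/kg in glucose solution, and the remaining group received vehicle. Both drugs went into the peritoneal cavity to produce neuropathic pain, and 1 vehicle group stands against 2 solvents, so drug and solvent cannot be told apart. Strain, sex, age, the number of injections and the hour at which ganglia were taken are not given in the sources used here, so no value below can be placed at a time of day. The labels do not say whether the 4 replicates were separate rats, so a p-value here rests on the spread among libraries, part or all of which may be technical.

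The molecular clock is a feedback loop of transcription present in most cells. A dimer of BMAL1, encoded by Arntl, with CLOCK or its paralog NPAS2 binds E-boxes and activates the Period, Cryptochrome and REV-ERB genes as well as Dbp, Tef and Hlf. Period and Cryptochrome proteins then repress that dimer. The REV-ERB proteins bind sites shared with the ROR receptors and repress Arntl and Npas2, so that transcripts of both arms peak at broadly opposite times of day. DBP, TEF and HLF carry the rhythm to genes with D-boxes, among them the Period genes. The 8 genes of the E-box arm are therefore set below against Arntl and Npas2. Genes of an arm need not peak at the same hour, so phase does not fix a single sign for all 8.

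These elements could be read in RefSeq windows (assembly GRCr8, 250 bases before to 50 after each start) for 9 of the 10 genes, in 10 windows because Nr1d1 has more than 1 start. The build behind the deposited tables is not known, and the windows are shown only to give the letters. The E-box CACGTG, which reads the same on both strands, was in 2 of the 10 windows and in 6.42% of all 33469 windows of that length. The D-box TTANGTAA on either strand was in 1 of 10 (2.24% of all), and the REV-ERB and ROR element TAGGTCA on either strand in 1 of 10 (2.63% of all). The 4 stretches that hold a match are printed 5′ to 3′ on the gene's own strand with the match in capitals, because their genes stand on both arms of the loop. No match overlapped another. They lie at chr7:115206604-115206659 (Tef, plus strand, E-box starting 198 bases before the start), chr10:84229615-84229670 (Nr1d1, minus strand, 191 before), chr9:99497153-99497210 (Per2, minus strand, D-box 192 before) and chr1:176766287-176766327 (Arntl, plus strand, REV-ERB and ROR element 16 before).
Tef E-box: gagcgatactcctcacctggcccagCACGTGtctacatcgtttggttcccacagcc
Nr1d1 E-box: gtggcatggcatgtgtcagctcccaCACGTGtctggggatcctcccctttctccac
Per2 D-box: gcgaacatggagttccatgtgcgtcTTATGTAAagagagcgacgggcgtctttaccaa
Arntl REV-ERB and ROR element: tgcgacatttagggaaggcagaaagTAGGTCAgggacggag
A match is a run of letters and not a measured binding site, and its absence from the other windows says only that these letters are not there.

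Levels below are CPM, estimated counts scaled to library size (per 1e6 counts, with TMM factors), given for libraries 1 to 4 of a group in that order. The libraries were of like depth, with totals of 17008728 to 17615736 estimated counts. Differences are log2 fold changes ± standard error from edgeR's quasi-likelihood test over all 15809 genes, with p-values adjusted by Benjamini-Hochberg over all of them, and "called" means an adjusted p under 0.05. All 14 sensory neuron markers were detected in every library, with a summed level of 11819 to 21606 CPM. Paclitaxel 4 stood apart from the other paclitaxel libraries: without it 1631 genes were called between paclitaxel and vehicle in place of 19.

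After oxaliplatin 7 of the 10 genes were called against vehicle, 6 higher and 1 lower, where 1.76% of all tested genes were called (278 genes, 166 higher and 112 lower). The 6 that rose, Dbp, Tef, Nr1d1, Nr1d2, Per2 and Per3, all belong to the E-box arm, and the 1 that fell was Arntl. In sign, 7 of the 8 genes of the E-box arm were higher and both activators lower, with Per1 the exception. The 10 had a median log2 fold change of 0.75, against 0.0094 over all genes tested. Because the 10 were chosen with earlier results of these data known, their share and median are descriptions and not a test of the set. The same 7 genes were those whose oxaliplatin and vehicle libraries did not overlap, which 11.3% of all genes tested also showed. The split of all called genes was 436 higher and 468 lower by DESeq2. By limma it was 256 and 74 with 1 added to the FPKM before taking log2, and 194 and 61 with 0.1 added.

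**Figure D1:**
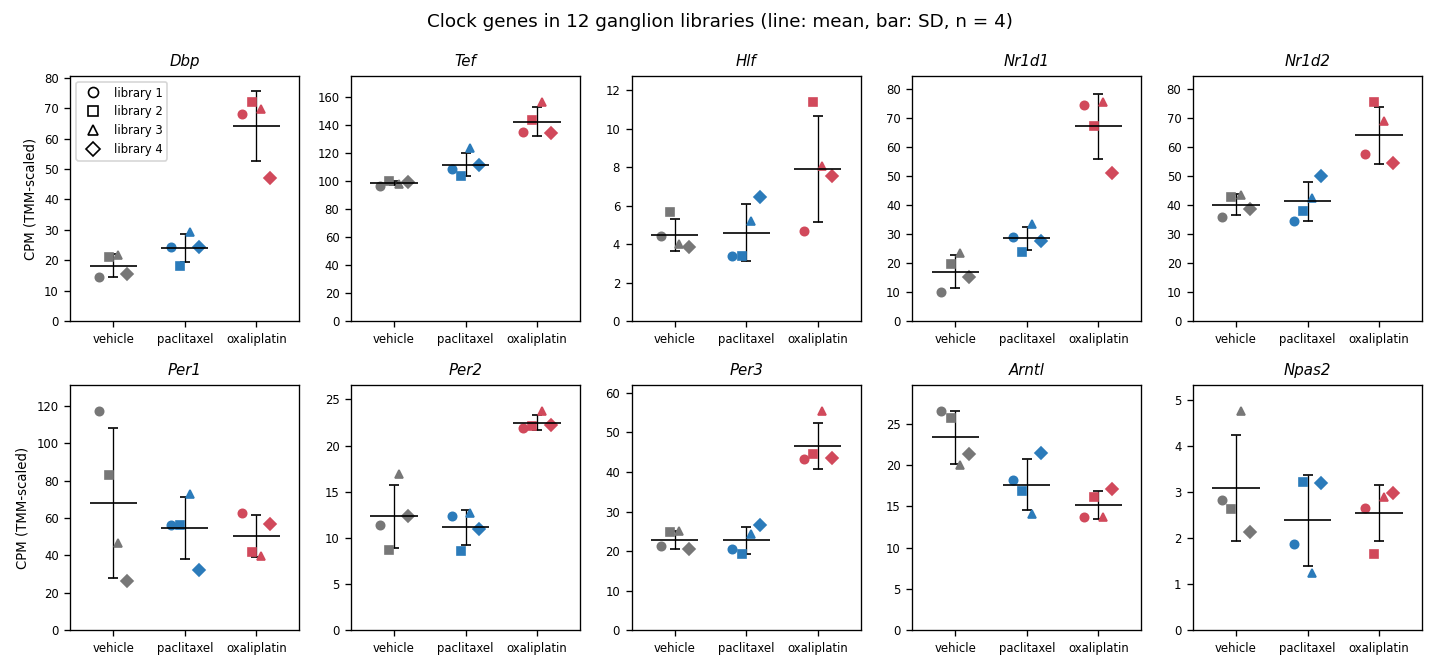
CPM (TMM-scaled, linear axis from 0) of each clock gene in the 12 libraries, 1 panel a gene, with groups along the horizontal axis, symbols for library numbers, the mean as a line and the SD as a bar (n = 4). Dbp, Tef, Nr1d1, Nr1d2, Per2 and Per3 lie above every vehicle library in all 4 oxaliplatin libraries, Arntl lies below, and Per1 spreads from 26.1 to 117 within the vehicle group.

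Dbp encodes a proline and acidic amino acid-rich (PAR) bZIP factor, one of the most strongly rhythmic outputs of the clock in many tissues. It stood at 14.7, 21.3, 21.8 and 15.4 CPM in the vehicle libraries, at 24.4, 18.0, 29.2 and 24.4 after paclitaxel and at 68.1, 71.9, 69.9 and 47.2 after oxaliplatin. Every oxaliplatin library was above every other library, and paclitaxel 2 lay within the vehicle range while the other 3 paclitaxel libraries lay above it. Dbp rose after oxaliplatin by 1.81 ± 0.18 (95% interval 1.43 to 2.19, adjusted p = 0.000355, edgeR), and ranked 3 by p among all genes tested. Against paclitaxel it was also higher (1.42 ± 0.17, adjusted p = 0.000981).

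Tef, the thyrotroph embryonic factor, is a PAR bZIP relative of Dbp with a shallower rhythm in most tissues. Its vehicle libraries were close together at 96.3, 100.2, 98.2 and 99.4 CPM, a coefficient of variation of 1.71%. The paclitaxel libraries held 108, 104, 124 and 111 CPM and the oxaliplatin libraries 135, 144, 156 and 134, so that no 2 of the groups overlapped. Tef rose by 0.53 ± 0.07 after oxaliplatin (adjusted p = 0.00369, edgeR) and was 0.35 ± 0.07 above paclitaxel (adjusted p = 0.0135). The second of these calls was lost without oxaliplatin 3 (0.29, adjusted p = 0.056).

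Hlf, hepatic leukemia factor, completes the PAR bZIP family and was low in these ganglia. Its CPM was 4.45, 5.67, 4.01 and 3.85 in vehicle, 3.39, 3.40, 5.21 and 6.45 after paclitaxel and 4.68, 11.4, 8.08 and 7.53 after oxaliplatin. Oxaliplatin 1 lay within the vehicle range and the other 3 above it. Its difference from vehicle, 0.82 ± 0.27, was close to that of Per2 in size but did not pass (95% interval 0.25 to 1.39, adjusted p = 0.133, edgeR). From paclitaxel it was 0.78 ± 0.27 (adjusted p = 0.0725), and this difference passed by DESeq2 (adjusted p = 0.0442), without paclitaxel 4 (0.98, adjusted p = 0.023) and without oxaliplatin 1 (0.95, adjusted p = 0.0361).

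Nr1d1 encodes REV-ERB alpha, the heme-binding nuclear receptor that represses Arntl. It stood at 10.2, 19.6, 23.5 and 15.3 CPM in vehicle, at 29.0, 24.00, 33.6 and 27.6 after paclitaxel and at 74.6, 67.3, 75.5 and 51.2 after oxaliplatin. The 3 groups did not overlap at any point, in the order vehicle, paclitaxel, oxaliplatin. It had the largest difference of the 10 genes, 1.97 ± 0.21 after oxaliplatin (95% interval 1.52 to 2.42, adjusted p = 0.000578, edgeR), and was 1.23 ± 0.20 above paclitaxel (adjusted p = 0.00537). In 12 of 12 libraries its count was fractional, a mark of reads shared with another gene, so its level is uncertain. In the RefSeq table it overlaps Thra, the thyroid hormone receptor alpha gene, and Thra held 205 to 222 CPM in vehicle and 195 to 235 after oxaliplatin (0.07 ± 0.09, adjusted p = 0.754).

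Nr1d2 encodes REV-ERB beta, the second receptor of that pair. The vehicle libraries held 35.7, 42.7, 43.3 and 38.6 CPM, the paclitaxel libraries 34.5, 37.8, 42.6 and 50.01, and the oxaliplatin libraries 57.5, 75.3, 68.7 and 54.3. Paclitaxel and vehicle overlapped in part, with paclitaxel 1 below the vehicle range and paclitaxel 4 above it, and oxaliplatin lay above both groups. Nr1d2 rose by 0.67 ± 0.13 (adjusted p = 0.0216, edgeR), and missed the threshold without vehicle 1, vehicle 4, oxaliplatin 2 or oxaliplatin 3 (adjusted p = 0.0645, 0.089, 0.0505 and 0.0644). Against paclitaxel the difference was 0.63 ± 0.13 (adjusted p = 0.0107).

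Per3, a Period gene that the clock can run without and a rhythmic output in many tissues, stood at 21.3, 24.8, 25.01 and 20.5 CPM in vehicle, at 20.5, 19.4, 24.4 and 26.5 after paclitaxel and at 43.4, 44.5, 55.4 and 43.4 after oxaliplatin. Its vehicle and paclitaxel means differed by -0.01 ± 0.12, while every oxaliplatin library was above both groups. Per3 rose by 1.03 ± 0.12 against vehicle (adjusted p = 0.000891, edgeR) and by 1.04 ± 0.12 against paclitaxel (adjusted p = 0.000639).

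Per2, a core repressor of the BMAL1 dimer, held 11.4, 8.65, 16.9 and 12.4 CPM in vehicle, 12.3, 8.57, 12.7 and 10.98 after paclitaxel and 21.9, 22.2, 23.7 and 22.2 after oxaliplatin. The oxaliplatin libraries were the most alike, with a coefficient of variation of 3.70% against 27.7% in vehicle. It rose by 0.87 ± 0.17 against vehicle (adjusted p = 0.025, edgeR) and by 1.01 ± 0.17 against paclitaxel (adjusted p = 0.00537). The call against vehicle was lost without vehicle 1, 2 or 4 (adjusted p = 0.0718, 0.0602 and 0.0939) or oxaliplatin 1 or 3 (0.0634 and 0.069). Like Nr1d1 it had fractional counts in 12 libraries and is uncertain.

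Per1, the Period gene that also responds quickly to glucocorticoids and to signals through CREB, did not follow the other 7 genes of its arm. Its CPM was 117, 82.8, 46.4 and 26.1 in vehicle, 56.5, 56.5, 72.7 and 32.5 after paclitaxel and 62.7, 42.0, 39.6 and 56.8 after oxaliplatin. All oxaliplatin values fell inside the vehicle range. The difference from vehicle was -0.44 ± 0.41, with a 95% interval from -1.35 to 0.48 (adjusted p = 0.643, edgeR). Rises above 0.48, such as one as large as that of Per2 (0.87), lie outside this interval. Smaller rises, no change and falls down to -1.35 lie inside it.

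Arntl, which encodes the activator BMAL1, moved the other way. It stood at 26.5, 25.7, 20.0 and 21.4 CPM in vehicle, at 18.3, 16.8, 14.0 and 21.4 after paclitaxel and at 13.7, 16.1, 13.7 and 17.1 after oxaliplatin. Oxaliplatin libraries lay below all vehicle libraries and overlapped those of paclitaxel. Arntl fell by 0.63 ± 0.14 on the log2 scale after oxaliplatin (95% interval -0.92 to -0.33, adjusted p = 0.0385, edgeR). This was the weakest of the 7 calls. It was lost without vehicle 1, 2 or 4 (adjusted p = 0.104, 0.109 and 0.0972), without oxaliplatin 1, 2 or 3 (0.112, 0.0616 and 0.0957), and by limma on log2(FPKM + 1) and log2(FPKM + 0.1) (0.0659 and 0.0716). With the adipocyte marker score as a covariate it was -0.31 (adjusted p = 0.845). Against paclitaxel the difference was -0.22 ± 0.14 (adjusted p = 0.316).

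Npas2, the CLOCK paralog, was the lowest of the 10. It held 2.83, 2.63, 4.75 and 2.12 CPM in vehicle, 1.87, 3.23, 1.24 and 3.19 after paclitaxel and 2.66, 1.67, 2.88 and 2.98 after oxaliplatin. The groups overlapped in part, with paclitaxel 1, paclitaxel 3 and oxaliplatin 2 below the vehicle range. Its differences were -0.28 ± 0.32 for oxaliplatin and -0.37 ± 0.32 for paclitaxel against vehicle (adjusted p = 0.716 and 0.533, edgeR). The 95% interval for oxaliplatin, -0.97 to 0.42, held changes in both directions.

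**Figure D2:**
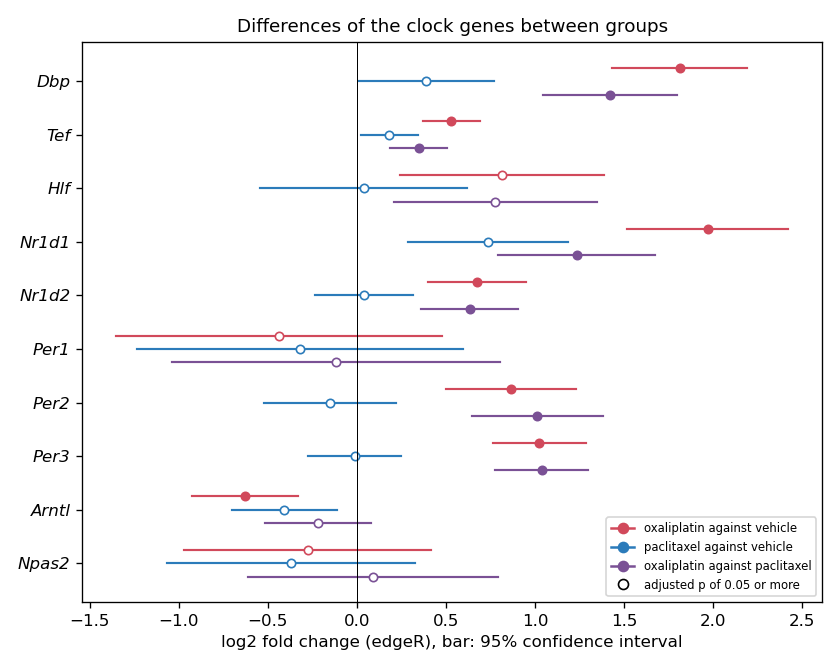
Log2 fold change of each clock gene (horizontal axis) in the 3 comparisons, by colour, with 95% confidence intervals from edgeR as bars; open circles have an adjusted p of 0.05 or more. The intervals of oxaliplatin against vehicle lie above 0 for all genes of the E-box arm except Per1, and below 0 for Arntl.

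After paclitaxel 0 of the 10 genes passed edgeR's test against vehicle, where 0.12% of all tested genes did (19 genes). At an unadjusted p under 0.05 there were 4 of the 10, and 2697 of the 15809 genes tested. The 4 were Nr1d1 (0.74 ± 0.21, unadjusted p = 0.0036, adjusted p = 0.203), Arntl (-0.41 ± 0.14, 0.0105 and 0.221), Tef (0.18 ± 0.07, 0.0287 and 0.257) and Dbp (0.39 ± 0.18, 0.045 and 0.283). Over the whole list 5 of the 8 genes of the E-box arm were higher and 3 lower (median 0.04), and both activators were lower. Nr1d1 and Tef were also the 2 of 10 genes whose paclitaxel and vehicle libraries did not overlap, against 6.96% of all genes. DESeq2 called 1 of the 10, Nr1d1 (0.74, adjusted p = 0.0402), among 1.19% of all genes, and without paclitaxel 4 edgeR called 1, Arntl (-0.51, adjusted p = 0.0378), among 10.2% of all genes called in that fit. Hlf (0.04 ± 0.27), Nr1d2 (0.04 ± 0.13), Per3 (-0.01 ± 0.12) and Per2 (-0.15 ± 0.17) were near 0, and Per1 was at -0.32 ± 0.41. Signs of Hlf, Nr1d2, Per1, Per2 and Per3 changed when 1 library was left out.

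Between the drugs 6 genes were called, all higher after oxaliplatin: Dbp, Tef, Nr1d1, Nr1d2, Per2 and Per3. Of all genes tested 11.3% were called in this comparison (1788 genes, 1044 higher, which is 6.6%, and 744 lower). The same 6 genes did not overlap between the groups, as 15.3% of all genes did not. The split was 1338 higher and 1444 lower by DESeq2, and by limma 1507 and 277 with 1 added to the FPKM, or 1456 and 263 with 0.1 added. The 10 genes had a median of 0.71, against 0.0042 over all genes, again a description of genes chosen with earlier results known. The comparisons share their oxaliplatin or vehicle libraries, so each is given by its own values. For Nr1d1 the oxaliplatin value was 1.97 against vehicle and 1.23 against paclitaxel, while for Per3 the values were 1.03 and 1.04 and for Per2 0.87 and 1.01.

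Per kilobase of transcript, on the FPKM scale, Tef was the highest of the 10 in vehicle at 23.4 ± 0.247 (SD, n = 4), followed by Per1 (14.5 ± 8.53), Dbp (11.3 ± 2.52), Nr1d2 (8.63 ± 0.726), Arntl (8.20 ± 1.14), Nr1d1 (7.30 ± 2.41) and Per3 (5.53 ± 0.621). Each neighbouring pair of these 7 overlapped. Per2 (2.06 ± 0.589) was separate from Per3 above it and from Hlf (0.80 ± 0.142) below it, and Hlf overlapped Npas2 (0.763 ± 0.289). After oxaliplatin the order of FPKM levels began with Dbp (40.3 ± 7.12), Tef (34.6 ± 2.79) and Nr1d1 (29.3 ± 4.81), which overlapped in turn and stood clear of Nr1d2 (14.1 ± 2.20). Arntl was then at 5.52 ± 0.579, below Per1 at 10.7 ± 2.19. After paclitaxel Tef (25.7 ± 2.00) stood clear of Dbp (14.3 ± 2.63), and Nr1d1 (11.8 ± 1.57) came next, overlapping Dbp.

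The FPKM ratio of Nr1d1 to Arntl sets the repressor against its target within 1 library and does not depend on how libraries are scaled. It was 0.471, 0.913, 1.45 and 0.869 in vehicle, 1.94, 1.72, 2.91 and 1.53 after paclitaxel and 6.36, 4.98, 6.64 and 3.68 after oxaliplatin. The 3 groups did not overlap. The FPKM ratio of Dbp to Arntl ran from 0.967 to 1.98 in vehicle, from 1.91 to 3.66 after paclitaxel, where it overlapped vehicle, and from 4.85 to 8.80 after oxaliplatin. A contrast over all 10 genes, the mean log2 CPM of the 8 genes of the E-box arm minus the mean of Arntl and Npas2, was 1.35, 1.61, 1.37 and 1.52 in vehicle, 2.03, 1.56, 2.77 and 1.65 after paclitaxel and 2.79, 3.14, 2.87 and 2.48 after oxaliplatin. Paclitaxel 3 reached the oxaliplatin range and paclitaxel 2 stayed in that of vehicle. Npas2, low in all libraries, weighs as much as Arntl in this contrast. It had its lowest level in paclitaxel 3 (1.24 CPM), which raises the contrast of that library. The means differed by 1.36 between oxaliplatin and vehicle, by 0.54 between paclitaxel and vehicle and by 0.82 between the drugs. Without paclitaxel 3 the difference between paclitaxel and vehicle was 0.28. These are descriptions of genes chosen with their results known, so no test is attached.

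**Figure D3:**
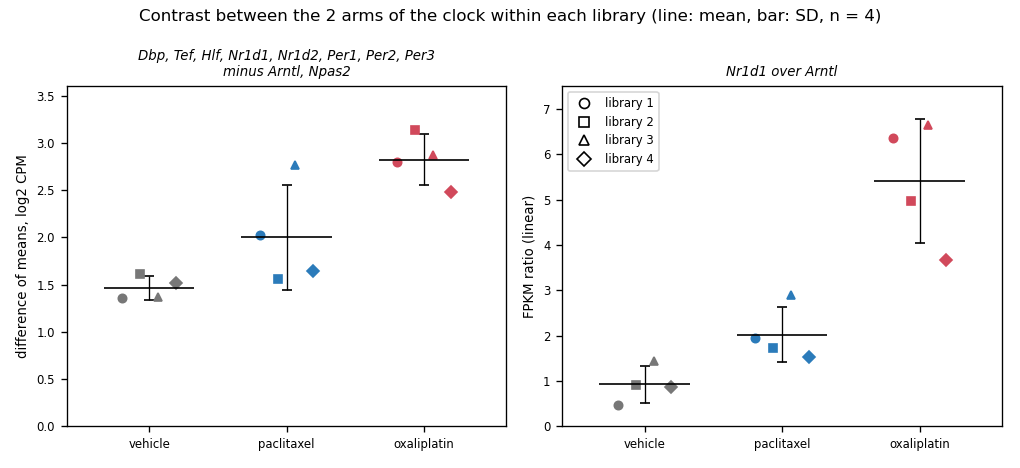
Left, mean log2 CPM of the 8 genes of the E-box arm minus that of Arntl and Npas2 in each library; right, the FPKM ratio of Nr1d1 to Arntl (linear axis); lines are means and bars SD (n = 4), with symbols for library numbers. All oxaliplatin libraries are above all vehicle libraries in both, and paclitaxel 3 is the paclitaxel library nearest to oxaliplatin in both.

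The spread of Per1 within the vehicle group was wide for this tissue. Its coefficient of variation there was 59.0%, above that of 99.2% of the 13899 genes whose mean log2 CPM was 1 or more (median 9.07%). After paclitaxel it was 30.4% and after oxaliplatin 22.3%. Over all 12 libraries, after each group's mean was subtracted, the genes most like Per1 were Espl1, a protease of sister chromatid separation (Pearson's r on log2 CPM of 0.91), Aatk (0.90), Zfp69 (0.88), Myrf, a myelin transcription factor (0.88), and Mmab (0.87). Aatk, a kinase, held 503, 434, 393 and 358 CPM in vehicle. Of 15 tested glucocorticoid-induced genes 2 put the vehicle libraries in the order that Per1 did, against 4.11% of all genes tested, a comparison chosen after the values were seen. They were Ddit4, an inhibitor of mTORC1 signalling, at 169.8, 139, 103 and 87.9 CPM, and Errfi1, an inhibitor of EGF receptor signalling, at 55.6, 41.1, 36.8 and 23.5. Counts of Errfi1 were fractional in every library, as were those of Aatk, Zfp69, Mmab and Zbtb16, so their levels are uncertain. Ddit4, the glucocorticoid-induced gene most like Per1, was at rank 24 of that likeness (0.78). The other 13 did not follow the order. Sgk1, a kinase induced by corticosteroids, had 50.3, 42.6, 25.3 and 28.5 CPM, and the glucocorticoid receptor targets Fkbp5 (42.2, 42.2, 74.5 and 49.2) and Zbtb16 (9.82, 9.12, 60.2 and 26.5) had their highest values in vehicle 3.

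**Figure D4:**
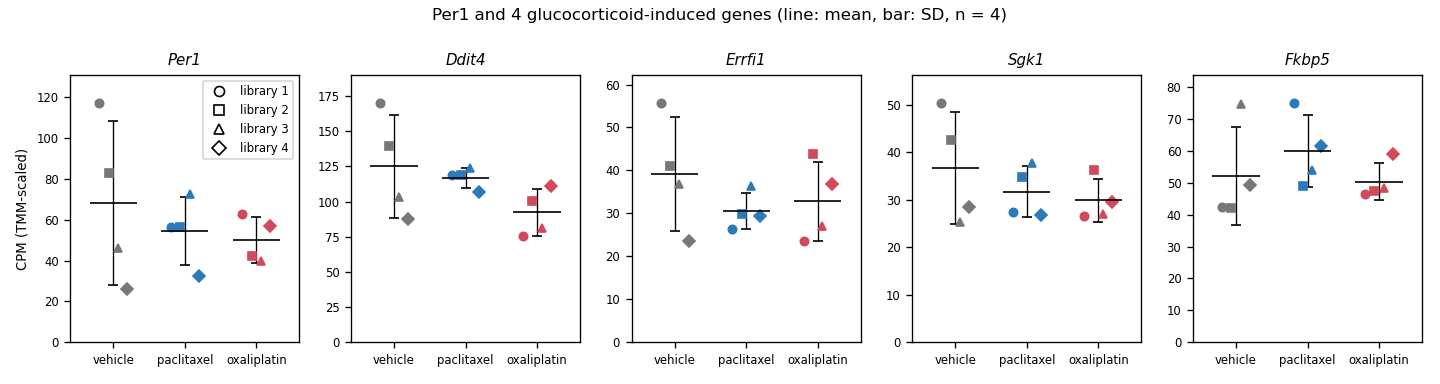
CPM (linear axis from 0) of Per1 and of 4 glucocorticoid-induced genes, chosen after their values were seen, in the 12 libraries, with the mean as a line and the SD as a bar (n = 4). Ddit4 and Errfi1 order the vehicle libraries as Per1 does, and Fkbp5 is highest in vehicle 3.

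Of 15 glucocorticoid-induced genes, 1 rose and 1 fell after oxaliplatin against vehicle (median -0.21), beside 1.05% and 0.708% of all genes tested. Tsc22d3, the anti-inflammatory leucine zipper protein GILZ, fell from 273, 251, 278 and 234 CPM in vehicle to 163, 198, 187 and 186 (-0.50 ± 0.08, adjusted p = 0.0117, edgeR). Mt2A, a metallothionein that metals also induce, rose (1.00 ± 0.24, adjusted p = 0.049), though its counts were not whole in 8 libraries. Of 13 tested genes that neuronal activity induces, 12 were higher and 0 were called (median 0.28, smallest unadjusted p = 0.0071 for Btg2), and of 8 temperature-responsive genes 1 fell, Hsph1, a heat shock protein (-0.45 ± 0.10, adjusted p = 0.0445). None of the 3 lists had a gene called after paclitaxel against vehicle. Between the drugs 13 of the 13 activity-induced genes were higher after oxaliplatin (median 0.39). Of them 3 were called, where 6.6% of all genes tested were called higher. They were Btg2 (0.54 ± 0.15), Fosb (1.45 ± 0.35) and Nr4a2 (0.39 ± 0.11), with adjusted p-values of 0.0343, 0.0222 and 0.0392 (edgeR). Nr4a2 had fractional counts in 12 libraries and is uncertain. In that comparison 1 of the 15 glucocorticoid-induced genes was called, lower after oxaliplatin, and 0 of the 8 temperature-responsive genes. Of all genes 11.3% were called there in either direction.

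The rest of the clock was followed in 20 further genes, 18 of them tested, drawn up with earlier results of these data known. Against vehicle 2 of the 18 rose after oxaliplatin and 0 fell, beside 1.05% and 0.708% of all genes. Both are repressors of the E-box arm. Ciart, also called Chrono, which binds BMAL1 and represses it, stood at 0.925, 0.935, 0.458 and 0.918 CPM in vehicle, 1.33, 1.11, 1.18 and 0.929 after paclitaxel and 2.08, 2.24, 2.15 and 1.57 after oxaliplatin (1.31 ± 0.26, adjusted p = 0.025, edgeR). It was low but its oxaliplatin libraries lay above all others. Bhlhe40, the E-box repressor DEC1, held 11.3, 9.82, 14.4 and 12.3 CPM in vehicle and 16.3, 18.5, 17.6 and 17.2 after oxaliplatin (0.54 ± 0.12, adjusted p = 0.0363). Both were also higher after oxaliplatin than after paclitaxel, Ciart by 0.82 ± 0.25 (adjusted p = 0.049, edgeR) and Bhlhe40 by 0.62 ± 0.12 (adjusted p = 0.0082, edgeR). In that comparison 2 of the 18 were called higher and 1 lower. Of all genes 11.3% were called there in either direction and 6.6% higher.

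The RefSeq window of Ciart held 3 E-boxes, starting 93, 35 and 21 bases before the start, more than any window of the 10 genes, and that of Bhlhe40 held 1. The stretches, chosen because they belong to the further clock genes that rose, are at chr2:186112247-186112364 (minus strand) and chr4:143174205-143174260 (plus strand, E-box 220 bases before the start), with E-boxes in capitals. Bhlhe41, encoding DEC2, has 1 at 48 bases before its start and had 0.03 ± 0.10 against vehicle (adjusted p = 0.903, edgeR).
Ciart: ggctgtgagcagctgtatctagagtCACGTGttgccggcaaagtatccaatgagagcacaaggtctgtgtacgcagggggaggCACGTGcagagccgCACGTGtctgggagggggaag
Bhlhe40: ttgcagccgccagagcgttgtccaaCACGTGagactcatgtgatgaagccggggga

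Cry1 and Cry2, the Cryptochrome partners of the Period proteins, were not called: Cry1 had -0.36 ± 0.15 and Cry2 0.09 ± 0.10 after oxaliplatin (adjusted p = 0.243 and 0.69, edgeR). Nfil3, a bZIP repressor at D-boxes whose rhythm opposes that of Dbp, had -0.29 ± 0.19 (adjusted p = 0.463), and Clock, the partner of BMAL1, had -0.13 ± 0.11 (adjusted p = 0.591). None of the 3 tested activators and ROR receptors and none of the 8 kinases and ubiquitin ligases that act on clock proteins passed against vehicle, for either drug. Their medians after oxaliplatin were -0.13 and -0.11. Between the drugs Btrc, a subunit of the ubiquitin ligase that targets Period proteins, was lower after oxaliplatin (-0.38 ± 0.09, adjusted p = 0.0221). After paclitaxel the 2 smallest p-values of the 18 belonged to Csnk1d (0.26 ± 0.10) and Cry1 (-0.40 ± 0.15), neither of which passed (adjusted p = 0.24 and 0.241).

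Genes downstream of the clock were followed in a pair of lists. Of 13 tested genes that are rhythmic in many tissues 1 rose after oxaliplatin and 0 fell (median 0.13), beside 1.05% and 0.708% of all genes. It was Por, the cytochrome P450 reductase, from 57.3, 59.9, 64.9 and 59.2 CPM to 79.5, 79.96, 77.0 and 74.4 (0.37 ± 0.07, adjusted p = 0.0313, edgeR). Its paclitaxel libraries, at 79.2, 66.1, 75.2 and 68.7, also lay above vehicle without passing (0.26 ± 0.07, adjusted p = 0.202). Of 7 tested genes that the REV-ERB receptors repress, among them Clock, Cry1 and Nfil3, 5 were lower and 2 higher, with 0 called by edgeR (median -0.13; Cry1 had an unadjusted p of 0.0334). E2f8, a cell cycle factor on that list, was 1 of the 2 that were higher after oxaliplatin, without being called against vehicle. It was low, at 1.27, 0.351, 0.629 and 0.574 CPM in vehicle. It held 0.423, 0.411, 0.178 and 0.581 after paclitaxel and 2.08, 1.61, 1.47 and 2.42 after oxaliplatin, above both other groups. Of the 7 it was the 1 called between the drugs, higher after oxaliplatin (2.23 ± 0.40, adjusted p = 0.0065, edgeR). Of all genes 6.6% were called higher there.

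Across the 12 libraries, after each group's mean was subtracted, the gene most like Dbp among the 10 was Nr1d1, with Pearson's r of 0.86 on log2 CPM, at rank 4 of 12887 genes. Per3 (r = 0.66), Tef (0.64) and Nr1d2 (0.61) ranked 166, 197 and 251, and Arntl was at -0.38. The 5 genes most like Dbp were Faap24, a DNA repair protein (0.92), Tm7sf2, a sterol reductase (0.91), Unc119b (0.87), Nr1d1 and Max, the dimer partner of MYC (0.84), and the least like were Edrf1 and Syt16 (both -0.91). These values describe 12 libraries of like depth whose cell makeup differs within groups as well (erythroid markers summed to 1766 to 6168 CPM within oxaliplatin), and carry no test. Counts of Syt16 were fractional in every library and those of Faap24 in most, so both are uncertain.

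Markers of other cell types differed between the same groups. Of all genes tested 1.76% were called after oxaliplatin and 0.12% after paclitaxel, each against vehicle. Of 10 tested adipocyte markers all 10 were higher after oxaliplatin than in vehicle and 4 were called (median 1.67), with summed levels of 51.0 to 80.7 CPM in vehicle, 44.0 to 64.4 after paclitaxel and 72.5 to 153 after oxaliplatin; Lep, the leptin gene, was at 0 in 4 of the 12 libraries. Erythroid markers were higher in 10 of 10 (median 1.27, 0 called), with sums of 899 to 1837, 295 to 1123 and 1766 to 6168 CPM and Hba-a1 at 0 in 2 libraries. Markers of B and plasma cells were higher in 8 of 9 (median 1.38, 0 called), with sums of 84.0 to 90.1, 67.8 to 88.0 and 80.6 to 149 CPM and Vpreb1 and Vpreb2 at 0 in 5 and 3 libraries. Sensory neuron markers were lower in 12 of 14 (median -0.17, 1 called), with sums of 14788 to 16726, 16199 to 21606 and 11819 to 14907 CPM. Between the drugs, where 11.3% of all genes were called, 7 of 14 neuron markers were called lower after oxaliplatin (14 of 14 in sign), and 7 of 10 adipocyte, 8 of 10 erythroid and 7 of 9 B and plasma cell markers were called higher. Macrophage markers were lower after paclitaxel than in vehicle in 11 of 11, with 2 called (median -0.89). Neutrophil markers were lower than in vehicle in 9 of 9 after paclitaxel (median -1.46) and after oxaliplatin (-0.46), with 0 called. After oxaliplatin Schwann cell markers were higher than in vehicle in 8 of 8, fibroblast markers in 6 of 7 and endothelial markers in 7 of 8. Macrophage markers were lower in 7 of 11 and satellite glial markers in 5 of 8, and 0 of these 5 lists' genes were called. Between the drugs macrophage markers were higher after oxaliplatin in 11 of 11 with 6 called (median 0.74), fibroblast markers in 7 of 7 with 5 called (0.70), endothelial markers in 8 of 8 with 3 called (0.44) and satellite glial markers in 7 of 8 with 1 called (0.21). In bulk tissue, fewer cells of a type and less RNA per cell cannot be told apart.

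With the mean log2 level of the adipocyte markers as a covariate, 0 of the 10 genes and 5 of all genes were called after oxaliplatin, and the fold changes were 1.79 for Dbp, 1.77 for Nr1d1, 1.09 for Per3, 0.73 for Nr1d2, 0.55 for Tef, 0.84 for Per2 and -0.31 for Arntl (adjusted p = 0.0594, 0.0892, 0.0892, 0.42, 0.213, 0.507 and 0.845, edgeR). That score, 0.73 to 1.54 in vehicle and 1.82 to 3.23 after oxaliplatin, did not overlap between the groups. With the neuron markers as a covariate all 7 were called against vehicle (Arntl at -0.71, adjusted p = 0.0132), in a fit that called 13.3% of all genes (2104). Between the drugs the same covariate left 0 of the 6 calls, in a fit that called 1.21% of all genes (191). There Dbp had 1.10 (adjusted p = 0.123, edgeR) and Nr1d2 0.12 (adjusted p = 0.739, edgeR). The neuron score, 9.26 to 9.55 after paclitaxel and 8.90 to 9.21 after oxaliplatin, did not overlap between the drugs. Score and drug therefore cannot be told apart in that fit. The part of the other cell types in these results was not tested.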

How the data were processed

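RNA of 12 ganglion libraries was analysed from 1 deposited table per library, and groups came from the sample titles. Per the file headers, the tables give an expected count (an estimated count that need not be whole) and an FPKM value for each gene. CASAVA 1.4 and Bowtie2 are named, per the submitters' processing notes; the quantification tool and genome build are not given in the sources used here, nor whether counting used strand. The lowest FPKM the authors deposited is 0.01, and genes missing from a library's table were set to 0. The rounded expected counts were modelled in edgeR 4.0.16 (R 4.3.3; default expression filter, TMM, robust quasi-likelihood, 3 group means over 12 libraries, 9 residual degrees of freedom, two-sided tests). Log2 CPM used a prior count of 2. The 4 libraries a group set the precision, and no 2 libraries of a group agreed within sampling noise by chi-square. The code was tested on simulated counts.

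The 10 genes and all lists were chosen with earlier results of these data known. Text names all 10, the called genes of the rest of the clock or else those with the 2 smallest p, up to 4 genes of other lists by smallest p, and the 5 genes most and 2 least like Dbp; Thra, Bhlhe41, Cry2, Nfil3, Clock and the genes set beside Per1 were added after their values were seen. Alternatives were DESeq2 1.42.0, upper-quartile scaling, no filter, limma 3.58.1 on log2(FPKM + 1) and log2(FPKM + 0.1), a fit of the 2 groups compared, a replicate block, a marker score as a covariate, and leaving out each library. Promoter windows came from a RefSeq table of GRCr8, read with Python 3.11.15; Hlf was not matched.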

Additional observations from a re-analysis of the deposited data

Results flagged for a closer look

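Each of the 10 genes was checked in each group of 4 libraries for a library far from the other 3, by the gap to its nearest neighbour as a share of the group's range above Dixon's 95% critical value. Of 30 such groups 3 met this, all after oxaliplatin, and chance gives about 1 in 20. Oxaliplatin 4 was below the other 3 for Dbp (47.2 CPM). Oxaliplatin 3 was above the other 3 for Per2 (23.7 CPM, where the whole group lay between 21.9 and 23.7) and for Per3 (55.4 CPM). Dbp and Per3 kept their calls against vehicle without any 1 library, at 1.72 to 1.93 and 0.92 to 1.07. Per2 did not, with adjusted p-values of 0.00862 to 0.0939 (edgeR).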

How the results depend on the processing

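Dbp, Nr1d1, Per3 and Tef kept their calls after oxaliplatin against vehicle without any 1 library. The count of clock genes called in that comparison was 4 to 7 without 1 library (4 without vehicle 1, vehicle 4 or oxaliplatin 3), and 0 of 7 with the adipocyte score as a covariate. Between the drugs it was 5 to 7 without 1 library and 0 of 6 with the adipocyte or the neuron score. For paclitaxel it was 1 by DESeq2 and 0 to 1 without 1 library. The replicate numbers did not pair the libraries (1 of 12 correlations of same-numbered deviations above 0.1, range -0.23 to 0.16). With the replicate number as a block, 6, 0 and 6 clock genes were called after oxaliplatin, after paclitaxel and between the drugs, Arntl being lost (-0.63, adjusted p = 0.0566, edgeR), and 72, 15 and 986 of all genes. With the median over the E-box arm the contrast between oxaliplatin and vehicle was 1.88 in place of 1.36.

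Signs that changed belonged to genes that had not passed. For paclitaxel, Hlf was -0.16 with the adipocyte score, -0.013 on log2(FPKM + 1) and -0.045 on log2(FPKM + 0.1), Nr1d2 was -0.013 and -0.015 on those FPKM scales, and Per3 was 0.18 with the neuron score. Without 1 library Hlf ran from -0.17 to 0.17, Nr1d2 from -0.065 to 0.12, Per1 from -0.59 to 0.076, Per2 from -0.29 to 0.040 and Per3 from -0.10 to 0.057. Between the drugs, Arntl was 0.21 and Npas2 -0.41 with the adipocyte score, and Hlf -0.061, Per1 0.14 and Npas2 -0.10 with the neuron score; without 1 library Npas2 ran from -0.12 to 0.27 and Per1 from -0.30 to 0.053. Npas2 against vehicle after oxaliplatin ran from -0.42 to 0.0049. The cause was not tested. Called genes of all genes went from 278 to 49 without vehicle 4, from 19 to 1631 without paclitaxel 4 and from 1788 to 571 without oxaliplatin 3 or 3463 without paclitaxel 4. DESeq2 called 904, 238 and 2782. With 4 libraries a group, a difference as large as that of Hlf did not pass at its level of 3.39 to 11.4 CPM.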
